A study of Homo sapiens with 14 samples.

Results

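Chromosome 19 is the most gene-dense human chromosome, and the peaks that lie on it in 12 lists of heat shock factor and control binding are described here. The peaks were selected on their position alone, and the chromosome was chosen because earlier results of these data showed a high density of sites on it. In all, 5505 of 117699 peaks (4.68%) lay on chromosome 19, against 110538 peaks on the other 21 autosomes. Its extent, taken up to the last peak of any list, was 59.1 Mb, which is 2.05% of the summed extent of the 22 autosomes. In RefSeq's annotation of GRCh38.p14, a later build than that of the peak lists, chromosome 19 carries 1451 protein-coding genes, or 7.59% of those on the autosomes, and ranks 2 behind chromosome 1 with 2061. All positions are in hg19, and since no hg19 annotation was used here, sites are given by position without gene names, introns or exons.

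Heat shock factor 1 (HSF1) is the main activator of chaperone genes when cells are heated. It waits as an inactive monomer, forms trimers under stress and then binds heat shock elements, which are short inverted repeats in DNA. Heat shock factor 2 (HSF2) is a relative that recognises the same elements and can form mixed trimers with HSF1. In mitosis chromosomes condense and many transcription factors leave DNA, so the occupancy of sites by each factor in dividing cells was a question of the study.

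The study used K562, a line of human erythroleukemia cells, and read the DNA bound to each factor by sequencing after chromatin immunoprecipitation (ChIP-seq). Cells were arrested in mitosis (mitotic) or grew freely (cycling), and either state was heat-treated (30 min at 42 °C) or non-treated (kept at 37 °C). Each of these 4 conditions has 1 library with an antibody against HSF1, 1 against HSF2 and 1 with non-specific IgG, and each state has 1 input library. Both inputs are labelled as heat-treated, and they were the control of the non-treated lists too, so every fold of a non-treated list is over heat-treated input. All are of the unmodified line, and the agent that arrested the cells is not given in the sources used here. Every library came from 10 pooled immunoprecipitations, so there is 1 library per group, no replicate error can be given and no condition was tested. Intervals are 95% intervals of counting error only, and PCR reads are not independent molecules.

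The 12 antibody libraries kept between 2066373 tags (non-treated mitotic IgG) and 28676943 tags (non-treated cycling HSF2). Alignment naming in the file headers went almost with cell state, being of one kind in 5 cycling lists and of another in the 6 mitotic lists and in non-treated cycling IgG. A difference between mitotic and cycling cells and a difference in upstream handling therefore cannot be told apart. The deposited fold sets ChIP tags over the input tags expected at the peak, and in the shallowest lists it was often below 1. On chromosome 19 this held for 12.2% of the heat-treated and 33.6% of the non-treated mitotic HSF1 peaks, and for 85.0% of the non-treated mitotic IgG peaks.

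Chromosome 19 held more peaks per Mb than the pool of other autosomes in each of the 12 lists, IgG included. In heat-treated mitotic cells there were 172 HSF1 peaks, 377 HSF2 peaks and 2305 IgG peaks on it. The density relative to the other autosomes was 1.74 (1.48 to 2.02) for HSF1 and 2.30 (2.07 to 2.55) for HSF2, both below 2.85 (2.73 to 2.97) for IgG. Among peaks of fold at least 5 the ratios were 5.96 for HSF1, 2.35 for HSF2 and 2.60 for IgG, without intervals. Only 2.33% of the 172 HSF1 peaks reached that fold, so these ratios cannot be ranked. Non-treated mitotic cells had 152, 845 and 100 peaks, at ratios of 1.70 (1.44 to 2.00) for HSF1, 2.14 (2.00 to 2.29) for HSF2 and 2.26 (1.83 to 2.77) for IgG. The 3 ratios of these cells have intervals that overlap or touch.

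In heat-treated cycling cells both factors lay above IgG. HSF1 had 357 peaks at a ratio of 2.88 (2.58 to 3.21), HSF2 had 274 peaks at 3.32 (2.92 to 3.75), and IgG had 169 peaks at 2.00 (1.70 to 2.33). In non-treated cycling cells HSF1 had 181 peaks at 1.96 (1.68 to 2.27), HSF2 had 57 peaks at 3.40 (2.55 to 4.44), and IgG had 516 peaks at 1.63 (1.49 to 1.78). As densities these were 6.04 per Mb with heat and 3.06 per Mb without for HSF1, and 4.63 and 0.964 per Mb for HSF2, from 1 library each and with no test of heat. Chromosome 19 ranked between 1 and 5 among the 22 autosomes. It was first in heat-treated cycling HSF2 and in heat-treated mitotic IgG, and chromosome 22 was above it in each of the others. In heat-treated cycling HSF2 the margin was narrow, with 4.27 per Mb on chromosome 22. The extent counts stretches without any peak, and ranks over the length that tags can map to were not computed.

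**Figure D1:**
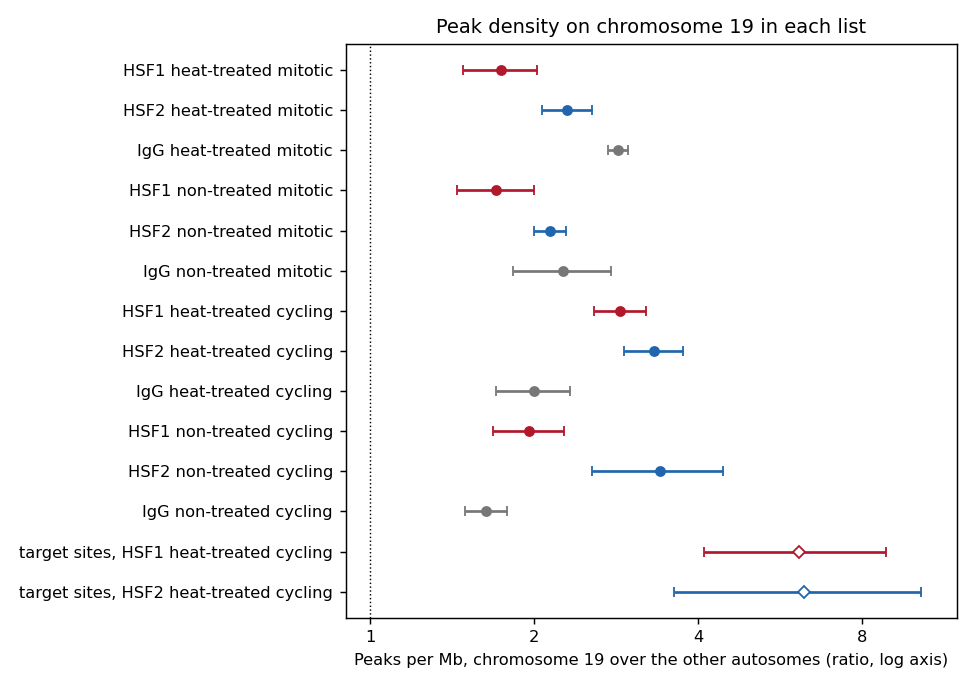
Peaks per Mb on chromosome 19 divided by peaks per Mb on the other autosomes (log axis) in each list, with 95% intervals of counting error. Circles are all deposited peaks, open diamonds are target sites (fold of at least 10) of the 2 lists with 10 or more on the chromosome, red is HSF1, blue HSF2 and grey IgG, and the dotted line marks a ratio of 1. All 12 lists lie to the right of the line, IgG of heat-treated mitotic cells lies right of both factors, and the diamonds lie at 6.13 and 6.27. Heat-treated mitotic HSF2, with 2 sites at a ratio of 15.9 (1.57 to 88.9), has no diamond.

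In heat-treated cycling cells the density was as high without the peaks shared with IgG. When each HSF peak that overlapped an IgG peak of any list was set aside, a step added after the values were seen, 260 of 357 HSF1 peaks and 200 of 274 HSF2 peaks remained. Their densities were 2.92 (2.56 to 3.31) and 3.40 (2.93 to 3.93) times those of the other autosomes, and chromosome 19 then ranked 1 for both factors. In heat-treated mitotic cells the same step left 69 HSF1 peaks at a ratio of 1.77 (1.37 to 2.25) and 270 HSF2 peaks at 2.71 (2.39 to 3.07).

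Along the chromosome the peaks were uneven, with the fewest around the centre. In 60 bins of 1 Mb, heat-treated cycling HSF1 had a median of 4.5 peaks per bin, against 1 in the 2833 bins of the other autosomes, and 12 of its bins exceeded 9 peaks, the 95th percentile elsewhere. Its fullest bins were 1 to 2 Mb and 48 to 49 Mb with 22 peaks each, followed by 0 to 1 Mb, 18 to 19 Mb and 50 to 51 Mb with 18 each. Heat-treated cycling HSF2 had a median of 3 per bin against 0 elsewhere, and was fullest at 50 to 51 Mb (17 peaks), 49 to 50 Mb (16) and 0 to 1 Mb (15). Matched IgG was fullest at 48 to 49 Mb (16 peaks) and 0 to 1 Mb (15) and had 11 at 50 to 51 Mb, so it was high in these leading HSF bins. At the others it had fewer peaks, with 5 at 1 to 2 Mb, 4 at 18 to 19 Mb and 0 at 49 to 50 Mb. The bins with 5 and 4 peaks still ranked 7 and 12 among its 60 bins, whose median was 2 peaks.

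The remaining HSF lists shared some of these bins and had others of their own. Heat-treated mitotic HSF1 was fullest at 37 to 38 Mb (22 peaks), 50 to 51 Mb (18), and 8 to 9 Mb and 48 to 49 Mb (12 each). Non-treated mitotic HSF1 was fullest at 8 to 9 Mb (22 peaks), 37 to 38 Mb (18) and 50 to 51 Mb (16), and non-treated cycling HSF1 at 8 to 9 Mb (17) and at 36 to 37 Mb, 37 to 38 Mb and 50 to 51 Mb (14 each). Non-treated cycling HSF2 had 9 peaks at 37 to 38 Mb, 7 at 8 to 9 Mb and 6 at 36 to 37 Mb. At 8 to 9 Mb and 36 to 38 Mb IgG was high too, and had 20 peaks at 8 to 9 Mb and 17 at 37 to 38 Mb in non-treated cycling cells, and 24 peaks at 36 to 37 Mb in non-treated mitotic cells. Heat-treated mitotic HSF2 was fullest at 1 to 2 Mb (22 peaks), 50 to 51 Mb (20) and 2 to 3 Mb (17), and non-treated mitotic HSF2 at 1 to 2 Mb (44), 0 to 1 Mb (32) and 3 to 4 Mb (32). The IgG list of heat-treated mitotic cells had 146 peaks at 1 to 2 Mb, its fullest bin.

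Both bins from 25 to 27 Mb were empty in all 12 lists, and the longest stretch without a peak ran over 3.1 Mb around them. Whether tags can map to hg19 there was not examined, so an absence of binding cannot be read from this stretch. Left of it lay 203 of 357 heat-treated cycling HSF1 peaks, or 56.9% (51.7 to 61.9), at 8.24 per Mb, against 4.91 per Mb on the right. For heat-treated cycling HSF2 the densities were 6.41 per Mb on the left and 3.70 per Mb on the right. Matched IgG was near even, at 3.04 per Mb on the left and 2.99 on the right, and so was non-treated cycling HSF1, at 3.33 and 3.15 per Mb. The lean to the left was not particular to the factors, since heat-treated mitotic IgG had 51.7 per Mb on the left and 32.9 on the right, beside 8.53 and 5.32 for heat-treated mitotic HSF2. Non-treated cycling IgG had 10.3 and 8.38 per Mb, and non-treated mitotic IgG 1.10 and 2.33.

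**Figure D2:**
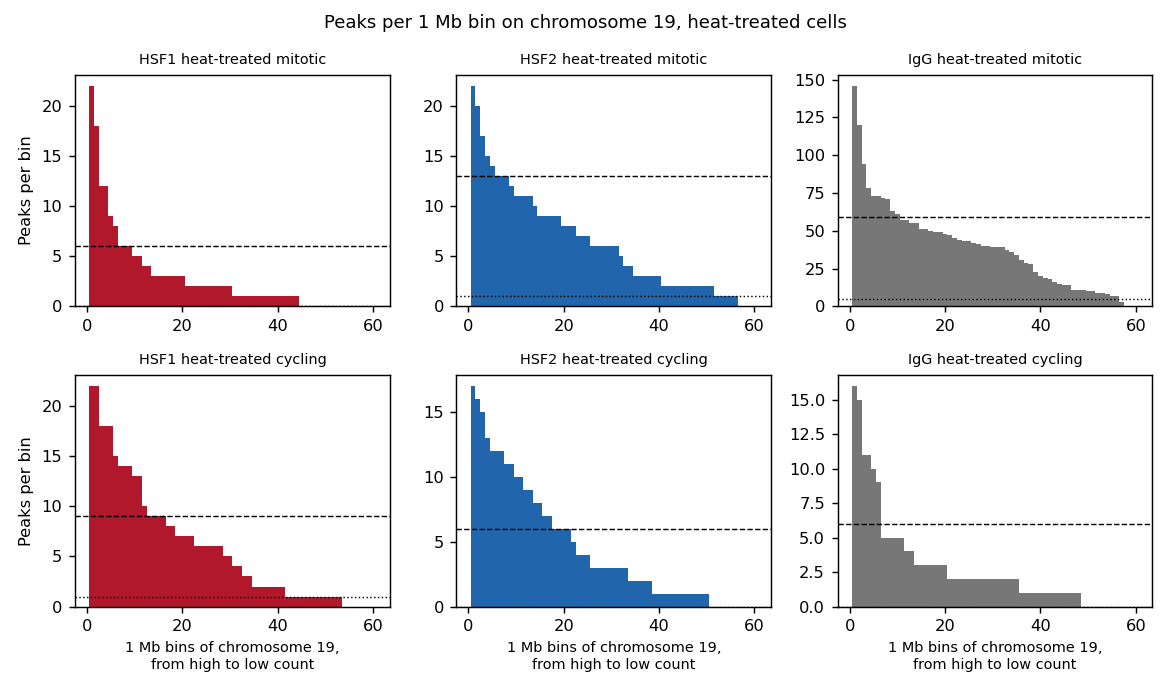
Peaks in each of the 60 1 Mb bins of chromosome 19, in order of count, in heat-treated mitotic (top) and cycling (bottom) cells. The dashed line is the 95th percentile and the dotted line the median over 2833 bins of the other autosomes (a median of 0 lies on the axis). In heat-treated cycling cells 12 HSF1 bins, 17 HSF2 bins and 6 IgG bins stand above the dashed line.

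Tags per peak, scaled per 1000000 tags kept (CPM), were modestly higher on chromosome 19 in heat-treated cycling HSF1. The median peak there had 1.25 CPM (quartiles 0.896 and 2.45), against 1.08 CPM (0.837 and 1.73) on the other autosomes. The median fold was 3.82 against 3.10. For heat-treated cycling HSF2 the median CPM was 1.03 in both places, while the upper quartile was 2.28 CPM on chromosome 19 and 1.69 CPM elsewhere. Heat-treated mitotic HSF2 went the other way, with a median of 0.671 CPM against 0.777 CPM. The medians of the non-treated cycling HSF1 list were 0.969 CPM in both places. Of all tags in autosomal peaks, chromosome 19 held 5.77% in heat-treated cycling HSF1, 6.32% in heat-treated cycling HSF2 and 4.53% in matched IgG.

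Strongly enriched peaks were few on chromosome 19. As target sites were counted those peaks whose deposited fold reached 10, unless an IgG peak from the matching condition that reached 10 as well lay over them. On chromosome 19, 32 of 357 heat-treated cycling HSF1 peaks (8.96%) were target sites, against 249 of 5912 peaks (4.21%) on the other autosomes. For heat-treated cycling HSF2 there were 18 of 274 (6.57%), against 137 of 3942 (3.48%). Heat-treated mitotic HSF2 had 2 sites, and the other 5 HSF lists had none. These counts rest on a fold that depends on depth. When the fold was multiplied by kept input tags over kept ChIP tags and had to reach 20, heat-treated mitotic HSF1 had 13 sites, heat-treated mitotic HSF2 0 and non-treated mitotic HSF2 1, while heat-treated cycling HSF1 and HSF2 had 34 and 15. The IgG rule removed no peak of chromosome 19. The threshold cut through a continuum, since the lowest HSF1 fold inside was 10.0 and the highest outside was 9.69, with 10 HSF1 peaks between 9 and 10.

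Chromosome 19 had the highest density of target sites of any autosome for both factors. It held 32 of 281 autosomal HSF1 sites, or 11.4% (8.18 to 15.6), at 0.541 per Mb against 0.0883 per Mb elsewhere, a ratio of 6.13 (4.10 to 8.88). It held 18 of 155 HSF2 sites, or 11.6% (7.47 to 17.6), at 0.304 per Mb against 0.0486 per Mb, a ratio of 6.27 (3.61 to 10.3). Chromosome 17 came next, with 18 HSF1 sites at 0.222 per Mb and 12 HSF2 sites at 0.148 per Mb. Because the chromosome was chosen for its density, these values describe it and support nothing further.

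Counted per gene the excess was smaller. Chromosome 19 had 22.1 HSF1 sites per 1000 protein-coding genes, against 14.1 on the other autosomes, a ratio of 1.57 (1.05 to 2.27). For HSF2 the values were 12.4 and 7.75 per 1000 genes, a ratio of 1.60 (0.921 to 2.62), whose interval includes 1. By this measure chromosome 19 ranked 3 for both factors, and the highest were chromosome 21 for HSF1 (37.7 per 1000 genes) and chromosome 7 for HSF2 (18.1).

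**Figure D3:**
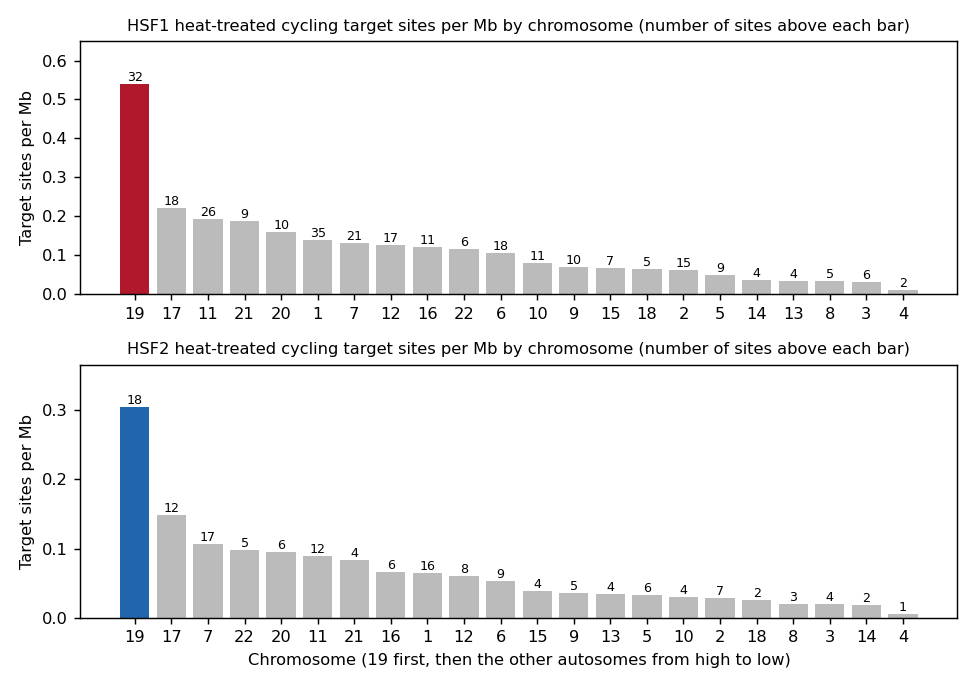
Target sites per Mb of heat-treated cycling HSF1 (top) and HSF2 (bottom) on each autosome, chromosome 19 coloured and placed first, with the number of sites above each bar. Chromosome 19 reaches 0.541 HSF1 sites and 0.304 HSF2 sites per Mb, and the next is chromosome 17 at 0.222 and 0.148 per Mb.

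The sites on chromosome 19 were also a little stronger than the pool of sites elsewhere, though not than those of every autosome. HSF1 sites had a median fold of 14 (range 10.0 to 29.6) and 4.15 CPM, against 12.8 and 3.64 CPM at the 249 sites elsewhere. HSF2 sites had a median fold of 16.1 (10.1 to 33.7) and 3.98 CPM, against 12.5 and 3.13 CPM. The highest folds of these lists lay on other autosomes, at 46.3 for HSF1 and 54.0 for HSF2. Median HSF1 folds were higher on chromosomes 5 (15.8), 6 (14.2), 11 (14.2), 13 (19.6), 15 (17.7) and 16 (15.4). The median HSF2 fold was higher on chromosome 13 (16.3). The 32 HSF1 sites fell in 18 of the 60 bins, with 5 in the bin from 2 to 3 Mb, and 21 lay left and 11 right of the central gap. Of them, 12 (37.5%, 22.9 to 54.7) had another site within 100 kb, against 44 of 249 (17.7%, 13.4 to 22.9) elsewhere. More sites per Mb give more neighbours in a fixed window by construction, so this share is not separate from the density.

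The site of highest HSF1 fold was chr19:2398311-2399287. HSF1 had 21 tags (2.84 CPM, 1.76 to 4.35) there in heat-treated mitotic cells and 121 tags (7.23 CPM, 6.0 to 8.64) in heat-treated cycling cells. HSF2 had 30 tags (1.06 CPM) and 99 tags (5.08 CPM) in the same 2 states. No list of non-treated cells and no IgG list had a peak at this site.

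The next site, chr19:1354035-1355052, had a peak in 8 of the 12 lists. HSF1 had 33 tags (4.47 CPM, 3.08 to 6.28) in heat-treated mitotic cells and 95 tags (5.68 CPM, 4.59 to 6.94) in heat-treated cycling cells, intervals that overlap. It had 13 tags (0.90 CPM) in non-treated cycling cells and no peak in non-treated mitotic cells. HSF2 had 47 tags (1.66 CPM, 1.22 to 2.21) in heat-treated mitotic cells and 108 tags (5.55 CPM, 4.55 to 6.70) in heat-treated cycling cells, intervals that do not overlap. In non-treated cells HSF2 had 12 tags (0.812 CPM) in mitosis and 32 tags (1.12 CPM) in cycling cells. This was the leading HSF2 site of heat-treated cycling cells, with a fold of 33.7. Among IgG lists, heat-treated mitotic IgG had a peak of 13 tags (0.723 CPM) here.

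The site with the most tags was chr19:5863588-5865998, which was wide at 2411 bp. HSF1 had 22 tags (2.98 CPM, 1.87 to 4.51) in heat-treated mitotic cells, 209 tags (12.5 CPM, 10.9 to 14.3) in heat-treated cycling cells and 14 tags (0.969 CPM) in non-treated cycling cells. HSF2 had 31 tags (1.10 CPM) in heat-treated mitotic cells, 189 tags (9.70 CPM) in heat-treated cycling cells, 12 tags (0.812 CPM) in non-treated mitotic cells and 25 tags (0.872 CPM) in non-treated cycling cells. No IgG list had a peak there, and no other region of the chromosome was in 7 HSF lists without any IgG peak. Of these HSF peaks, that of non-treated cycling HSF2 had its summit 1141 bp from the summit of heat-treated cycling HSF1.

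A pair of sites lay 78 bp apart, at chr19:2677758-2678963 and chr19:2679042-2680277. At the second, HSF1 had 10 tags (1.35 CPM) in heat-treated mitotic cells and 118 tags (7.05 CPM) in heat-treated cycling cells, and HSF2 had a peak in heat-treated cycling cells alone, of 123 tags (6.32 CPM). At the first, HSF1 had 17 tags (2.30 CPM) in heat-treated mitotic and 87 tags (5.20 CPM) in heat-treated cycling cells. HSF2 had 22 tags (0.777 CPM) and 104 tags (5.34 CPM) in the same states. It had 13 tags (0.879 CPM) in non-treated mitotic cells, with a summit 699 bp from that of heat-treated cycling HSF1. Both sites lacked a peak in the non-treated cycling lists.

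One strong HSF1 site had no HSF2 peak in any list. At chr19:42387872-42388787 HSF1 had 21 tags (2.84 CPM, 1.76 to 4.35) in heat-treated mitotic cells and 83 tags (4.96 CPM, 3.95 to 6.15) in heat-treated cycling cells. It had a fold of 21.7 in heat-treated cycling cells. It was the only one of the 32 HSF1 sites without a heat-treated cycling HSF2 peak.

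The other sites among the 10 of highest HSF1 fold behaved as follows. At chr19:18740394-18741417 HSF1 had 11 tags (1.49 CPM) in heat-treated mitotic cells and 114 tags (6.81 CPM) in heat-treated cycling cells, and no peak without heat. HSF2 had 18 tags (0.636 CPM) there in heat-treated mitotic cells, 121 tags (6.21 CPM) in heat-treated cycling cells and 33 tags (1.15 CPM) in non-treated cycling cells. At chr19:54691921-54692784 HSF1 had 20 tags (2.71 CPM) in heat-treated mitotic and 73 tags (4.36 CPM) in heat-treated cycling cells, and in cycling cells HSF2 had 68 tags (3.49 CPM) with heat and 19 tags (0.663 CPM) without. Both of these sites had an HSF2 peak but no HSF1 peak in non-treated cycling cells. That HSF2 library kept 28676943 tags and the HSF1 library 14446547, so a weak HSF1 signal could go unlisted. At chr19:18099887-18101004 and chr19:4762681-4763778 HSF1 had 1.76 and 1.62 CPM in heat-treated mitotic cells and 4.90 and 4.48 CPM in heat-treated cycling cells. HSF2 had 5.24 and 4.42 CPM at the same sites in heat-treated cycling cells, and a mitotic peak at the first alone (0.777 CPM). At chr19:5967901-5968704 HSF1 had 80 tags (4.78 CPM) and HSF2 57 tags (2.93 CPM) in heat-treated cycling cells, with no peak in any other list. Among HSF2's 10, chr19:3133200-3134173 had 17 HSF2 tags (0.601 CPM) in heat-treated mitotic cells and 85 (4.36 CPM) in heat-treated cycling cells.

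**Figure D4:**
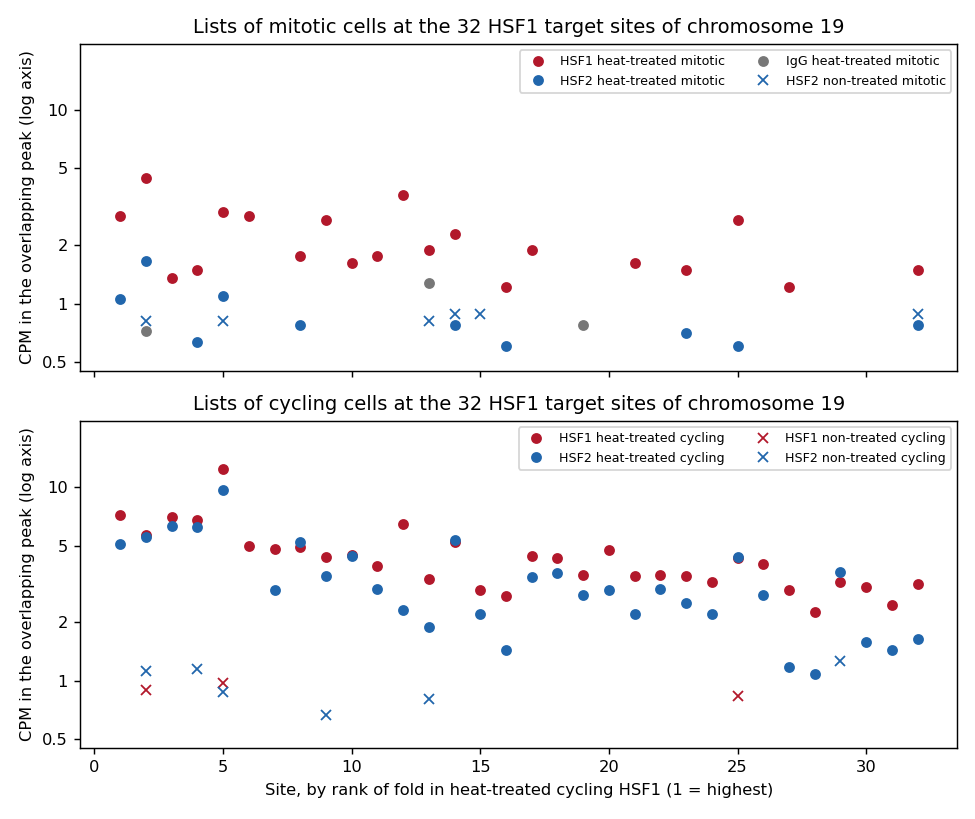
CPM in the overlapping peak at each of the 32 HSF1 target sites of chromosome 19 (log axis), sites in order of HSF1 fold in heat-treated cycling cells, for lists of mitotic cells (top) and cycling cells (bottom). Filled circles are heat-treated and crosses non-treated lists, red is HSF1, blue HSF2 and grey IgG, and no symbol means no deposited peak. Heat-treated mitotic HSF1 has 20 circles, 14 of them at the 16 sites of highest fold, and non-treated HSF1 has 3 crosses.

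Most of these sites had no peak of the same factor before heat. Only 3 of 32 HSF1 sites, or 9.38% (3.24 to 24.2), had a peak in non-treated cycling HSF1, against 5.22% of the HSF1 sites elsewhere, a difference of 4.15 points (-2.91 to 19.2). At these 3 sites the median was 5.68 CPM with heat and 0.90 CPM without. For HSF2, 4 of 18 sites, or 22.2% (9.0 to 45.2), had a non-treated cycling HSF2 peak, against 18.2% elsewhere. With summits within 250 bp this HSF2 share on chromosome 19 was 16.7%. Non-treated cycling IgG had a peak at 0 of 32 and 0 of 18 sites, which allows shares of up to 9.38% and 16.7%. Elsewhere these IgG shares were 2.41% and 5.11%. The shares on chromosome 19 were thus not distinguishable from those elsewhere at these counts. With 1 library per group, a missing peak means that no peak passed the caller's threshold, not that the factor was absent.

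Over all peaks of cycling cells, the shares on chromosome 19 lay above those on the pool of other autosomes. Of its heat-treated cycling HSF1 peaks 16.0% (12.5 to 20.1) overlapped a non-treated cycling HSF1 peak, against 11.1% (10.4 to 12) elsewhere, a difference of 4.82 points (1.29 to 9.05), and 2 other autosomes were higher. Most of this overlap lay at matched IgG peaks, since of the 297 HSF1 peaks without a matched IgG peak 3.03% had a non-treated HSF1 peak. Among HSF1 peaks of fold 5 to 10 the share was 3.75% (1.28 to 10.5), against 4.47% elsewhere. For all heat-treated cycling HSF2 peaks the share with a non-treated HSF2 peak was 9.49% (6.56 to 13.5), against 6.27% elsewhere. That difference was 3.22 points (0.185 to 7.34), and 2 other autosomes were higher. From the other side, 36.5% (29.8 to 43.7) of non-treated cycling HSF1 peaks had a heat-treated peak, against 15.1% (14.1 to 16.2), and no other autosome was higher. For HSF2 the same share was 47.4% (35.0 to 60.1) against 28.3% (25.3 to 31.6), and 1 other autosome was higher. In mitosis HSF2 differed in the other direction, with 14.3% (11.1 to 18.2) of heat-treated peaks also found without heat, against 22% (21.1 to 23).

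HSF1 and HSF2 shared nearly all target sites. An HSF2 peak was present at 31 of 32 HSF1 sites (96.9%, 84.3 to 99.4), against 98.4% elsewhere, and an HSF1 peak at 18 of 18 HSF2 sites (100%, 82.4 to 100), against 99.3% elsewhere. Of the HSF1 sites 16 of 32 (50.0%) and of the HSF2 sites 16 of 18 (88.9%) passed the fold of 10 for both factors, against 46.6% and 83.9% elsewhere. The summits of both factors lay a median of 17 bp apart, and 29 of 31 were within 100 bp, against a median of 19 bp elsewhere. HSF2 over HSF1 had a median CPM ratio of 0.754 (range 0.358 to 1.13), and HSF2 was higher at 4 of 31 sites.

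Among all peaks the overlap of the factors in heat-treated cycling cells was larger on chromosome 19 than on the pool of other autosomes. An HSF2 peak overlapped 46.8% (41.7 to 52.0) of HSF1 peaks, against 31.8% (30.6 to 33.0) elsewhere, a difference of 15 points (9.74 to 20.3). An HSF1 peak overlapped 60.9% (55.1 to 66.5) of HSF2 peaks, against 47.3% (45.8 to 48.9). The highest single autosome among the others had 46.2% for HSF1 and 58.5% for HSF2, values inside the intervals of chromosome 19. Within peaks of fold 5 to 10 the shares were close, with 75% (64.5 to 83.2) of HSF1 peaks sharing against 72.7% (69.6 to 75.6). In heat-treated mitotic cells 23.3% (17.6 to 30.1) of HSF1 peaks had an HSF2 peak, against 29.2% (27.9 to 30.5), a difference whose interval includes 0.

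Part of the HSF1 sites also had a peak in the library of heat-treated mitotic cells. A heat-treated mitotic HSF1 peak lay at 20 of 32 HSF1 sites (62.5%, 45.3 to 77.1), against 54.6% elsewhere, a difference of 7.88 points (-10.4 to 23.7). IgG of heat-treated mitotic cells overlapped 3 of the 32 (9.38%, 3.24 to 24.2), against 20.9% elsewhere. Non-treated mitotic HSF1 overlapped none of the 32, against 5.62% elsewhere. At the 20 sites the median was 1.83 CPM in mitosis and 4.45 CPM in cycling cells, the median of the mitotic over cycling ratios was 0.443, and mitotic was higher at none. Mitotic and cycling HSF1 summits were a median of 27.5 bp apart, while the 3 IgG summits lay 425 to 642 bp from those of HSF1. A mitotic peak was listed at 14 of the 16 sites of higher fold and 6 of the 16 of lower fold. The lower quartile of heat-treated mitotic HSF1 peaks on the chromosome was 9 tags (1.22 CPM). A weaker site can thus go unlisted in this library, and the part of this limit was not tested.

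Part of the HSF2 sites had a mitotic peak as well. A heat-treated mitotic HSF2 peak lay at 8 of 18 HSF2 sites (44.4%, 24.6 to 66.3), against 53.3% elsewhere. Heat-treated mitotic IgG had one at 2 of 18, against 24.1% elsewhere. At the 8 sites the median was 0.777 CPM in mitosis and 5.29 CPM in cycling cells, with a median ratio of 0.147, against 0.271 at the 73 such sites elsewhere. Heat-treated mitotic HSF1 lay at 13 of the same 18 sites (72.2%, 49.1 to 87.5), against 59.9% elsewhere. All 10 HSF1 sites with a mitotic HSF2 peak also had a mitotic HSF1 peak. The mitotic HSF1 list kept 7385467 tags and the mitotic HSF2 list 28299989, so the share of 62.5% for HSF1 came from the shallower library. The intervals for HSF1 and HSF2 overlap and their order depends on the threshold, since at a fold of 5 the mitotic shares were 25.2% for HSF1 and 26.8% for HSF2.

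Below the strong sites, overlap with mitotic HSF1 was less frequent. Of the HSF1 peaks of fold 5 to 10, 9 of 80 (11.2%, 6.03 to 20.0) overlapped HSF1 peaks of heat-treated mitotic cells, and 16 of 80 (20.0%, 12.7 to 30.0) IgG peaks of these cells. Elsewhere these shares were 16% and 15.8%. Over all heat-treated cycling HSF1 peaks the shares were 23.2% (19.2 to 27.9) for HSF1 and 23% (18.9 to 27.6) for IgG, against 16.0% and 20.9% elsewhere. The mitotic lists differ in length, with 172 HSF1 and 2305 IgG peaks on the chromosome, so these HSF1 and IgG shares cannot be ranked against each other. Read from mitosis, 59.9% (52.4 to 66.9) of heat-treated mitotic HSF1 peaks of chromosome 19 had a heat-treated cycling HSF1 peak, against 22.8% (21.6 to 24.0) elsewhere, and no other autosome was higher. Cycling IgG overlapped 41.9% (34.7 to 49.3) of the same mitotic peaks, against 18.6% (17.5 to 19.7). The part of shared IgG regions in that share was not tested.

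The 2 target sites of heat-treated mitotic HSF2 were unlike each other. One was chr19:1354035-1355052, described above, where mitotic HSF2 had a fold of 10.6. The other, chr19:23253697-23254638, belonged to a region with a peak in all 12 lists, with 87 HSF2 tags (3.07 CPM) and 76 IgG tags (4.23 CPM) in heat-treated mitotic cells, at folds of 10.9 and 9.07. IgG there stood just under the fold of 10 that would have removed it.

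**Figure D5:**
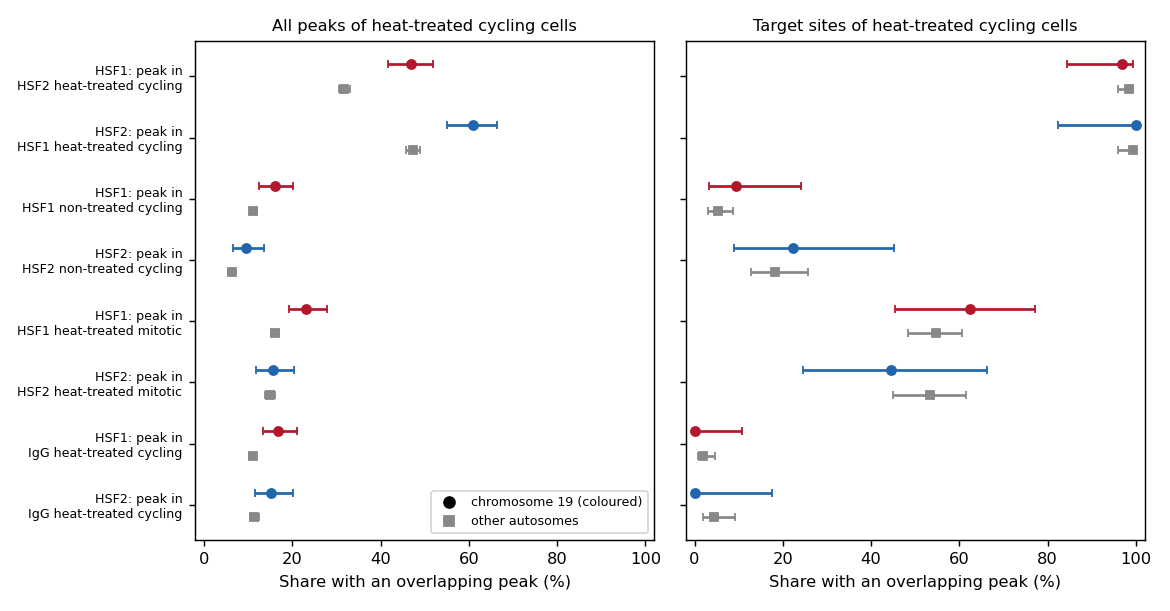
Share of heat-treated cycling peaks (left) and target sites (right) with an overlapping peak in the list named at the left, on chromosome 19 (coloured circles, red HSF1 and blue HSF2) and on the other autosomes (grey squares), with 95% Wilson intervals. For all peaks HSF1 and HSF2 sharing lies higher on chromosome 19 (46.8% and 60.9%) than elsewhere (31.8% and 47.3%). For target sites all pairs of intervals overlap.

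IgG overlap depended on the list, and the shares were lower where overlap had to be stricter. In heat-treated cycling cells 16.8% (13.3 to 21) of HSF1 peaks had an IgG peak of the same cells, against 11% (10.2 to 11.8) elsewhere, and for HSF2 it was 15.3% (11.5 to 20.1) against 11.4% (10.5 to 12.5). Among target sites it was 0 of 32 and 0 of 18, against 2.01% and 4.38% elsewhere. In non-treated cycling cells the shares were 32.6% (26.2 to 39.7) for HSF1 and 49.1% (36.6 to 61.7) for HSF2, against 19.6% and 38.3% elsewhere. Heat-treated mitotic cells had 50.6% (43.2 to 58.0) for HSF1, near the 49.8% elsewhere, and 27.3% (23.1 to 32.0) for HSF2, below the 36.5% (35.4 to 37.5) elsewhere. The order of the factors there turned under stricter overlap, with 15.1% for HSF1 and 18.6% for HSF2 at 50% reciprocal overlap, and 14% and 14.9% with summits within 250 bp. Non-treated mitotic cells had 23.7% (17.6 to 31.0) for HSF1 and 2.72% (1.82 to 4.05) for HSF2, against 16.5% and 2.52%, but their IgG library is the shallowest.

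Joined over lists, the peaks of chromosome 19 formed 4195 separate regions, of which 3667 (87.4%) came from 1 list. Of all regions, 1359 held HSF peaks alone, 340 held both HSF and IgG peaks, and 2496 held IgG peaks alone. The 4 regions present in all 8 HSF lists were also present in all 4 IgG lists. These were chr19:8856636-8863837, chr19:8871781-8891910, chr19:8892044-8897782 and chr19:23253070-23254668. In the first 3, the tallest peaks had folds between 0.38 and 2.67, and at the first HSF1 had 1.90 CPM and HSF2 6.22 CPM in heat-treated mitotic cells, against 8.34 CPM of IgG. Outside such regions, 14 regions held peaks of at least 4 lists with no IgG peak among them.

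Across the 32 HSF1 target sites, 29 had no IgG peak in any list. A peak was present in 2 HSF lists at 11 sites, in 3 at 9, in 4 at 5, in 5 at 5 and in 7 at 2. At 9 sites the only peaks were those of HSF1 and HSF2 in heat-treated cycling cells. Any non-treated HSF list had a peak at 10 sites, and HSF2 in non-treated cycling cells at 6 of them. At chr19:2677758-2678963, chr19:51893406-51894204 and chr19:1632665-1633822 the only such peak was of non-treated mitotic HSF2. Its summit lay 699, 291 and 555 bp from that of heat-treated cycling HSF1. These patterns were not counted on the other autosomes.

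The leading peaks of the other lists were weaker. In non-treated cycling cells the highest HSF1 fold was 6.38, at chr19:12065331-12066224, with 22 tags (1.52 CPM) and no peak in any other list. The highest HSF2 folds there were 8.53 at the site at chr19:1354035-1355052, 6.47 at chr19:54729049-54729992 with 32 tags (1.12 CPM), and 6.25 at chr19:42721489-42722273 with 23 tags (0.802 CPM). Heat-treated mitotic HSF1 led with folds of 7.04, 5.63 and 5.28 at 3 sites already described, chr19:1354035-1355052, chr19:54691921-54692784 and chr19:42387872-42388787. In non-treated mitotic cells HSF1 led with 3.17 at chr19:54636953-54637778 and HSF2 with 7.75 at chr19:57453828-57454872. Both overlapped heat-treated mitotic IgG peaks, of 42 tags (2.34 CPM) and 37 tags (2.06 CPM). HSF1 followed with 2.46 at chr19:524581-525411 (12 tags) and chr19:6421693-6422281 (10 tags), and HSF2 with 7.04 at chr19:54637136-54638152 (39 tags). The third HSF2 peak of heat-treated mitotic cells by fold, chr19:54612696-54613660, had 39 HSF2 tags (1.38 CPM) against 38 IgG tags (2.11 CPM). Among IgG lists the highest folds were 10.9 in heat-treated mitotic cells (chr19:57454096-57454877), 5.24 in heat-treated cycling, 2.11 in non-treated mitotic and 4.80 in non-treated cycling cells.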

How the data were processed

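ChIP-seq peak lists of 12 antibody libraries from K562 cells were used, and the 2 input libraries entered only as their control. Alignment used Bowtie with hg19, and peak calling MACS 1.4, per the submitters' processing notes. The headers name version 1.4.1 of MACS, a cutoff on p of 1e-05 and a fragment size of 200 bp, and in 5 lists alignment names that carry bwa. Tags per peak are deposited counts, per the file headers. The deposited score is minus 10 times log10 of the p-value, and the deposited fold is a ratio, ChIP tags over those expected from input. The FDR is a percent, as deposited by the authors. Per the file headers the caller scaled the smaller data set towards the larger, so folds and scores depend on depth.

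Accession names in 1 list were converted to chromosome names. Densities divided peaks, placed by midpoint, by the extent up to the last peak. Overlap meant at least 1 bp. Shares have Wilson and their differences Newcombe intervals, density ratios exact conditional binomial intervals, and CPM exact Poisson intervals (95%), and where 0 were found 3 counts set the upper limit. The chromosome, the site definition and the sites named were chosen with earlier results of these data known. Sites are named by rule: the 10 of highest fold in each heat-treated cycling HSF list, the 3 of highest fold in other lists, regions in all 8 HSF lists, and the 3 fullest bins of each HSF list. Of the IgG lists only the highest folds are printed. Gene counts came from RefSeq's GRCh38.p14 table, for totals per chromosome alone. Overlap counts matched bedtools 2.31.1 in 288 comparisons, with 0 differing, and steps were tested on simulated data. Python 3.11.15, pandas 2.3.3, scipy 1.17.1 and statsmodels 0.14.6 were used.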

Additional observations from a re-analysis of the deposited data

Results flagged for a closer look

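Heat-treated and non-treated lists differed in opposite directions in cycling and mitotic cells for several values of chromosome 19. With 1 library per group none of these differences was tested, and each is given as heat-treated minus non-treated. For HSF2 the number of peaks differed by -468 in mitotic cells (377 against 845) and by 217 in cycling cells (274 against 57). Its share of autosomal peaks differed by 0.301 points in mitotic cells and -0.144 points in cycling cells, and its density ratio by 0.157 and -0.0789. The median HSF2 fold differed by 1.05 in mitotic cells (3.87 against 2.82) and by -0.175 in cycling cells (3.83 against 4.01).

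For IgG the number of peaks differed by 2205 in mitotic cells (2305 against 100) and by -347 in cycling cells (169 against 516). The median IgG CPM differed by -3.09 in mitotic cells (0.779 against 3.87) and by 0.0804 in cycling cells (0.961 against 0.881). The median IgG fold differed by 2.69 in mitotic cells (3.17 against 0.485) and by -0.355 in cycling cells (2.45 against 2.80). Kept tags differed in mitotic IgG, at 17981369 with heat and 2066373 without. In cycling IgG they were close, at 14567365 and 14761560, but the alignment naming differed between these lists. The part of depth and of upstream handling was not tested.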

How the results depend on the processing

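Of 258 values recomputed under other settings, 142 kept their direction and stayed within counting error or 1.5 times the count, 113 moved further and 3 turned below a density ratio of 1. Unless stated, the cause was not tested. No paired analysis was possible because each group holds 1 library and the labels give no replicate numbers. Depth limits every share, since the libraries differ in kept tags and a peak below the caller's threshold is not listed, and leaving out a replicate was not possible.

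The density ratio of chromosome 19 fell to 0 with peaks of fold of at least 5 in non-treated mitotic HSF1, non-treated mitotic IgG and non-treated cycling IgG, lists with 0 such peaks there. With that fold it was 5.96 in heat-treated mitotic HSF1, 2.60 in heat-treated mitotic IgG and 6.51 in non-treated mitotic HSF2. Only 2.33% of the heat-treated mitotic HSF1 and 0.71% of the non-treated mitotic HSF2 peaks of the chromosome reached that fold. The ratio was 4.86 in heat-treated cycling HSF1, 4.19 in heat-treated cycling HSF2 and 2.98 in heat-treated cycling IgG. With a score of at least 100 it was 1.4 in heat-treated and 2.69 in non-treated mitotic HSF2. In cycling cells it was then 4.43 for heat-treated HSF1, 4.37 for heat-treated HSF2, 3.85 for heat-treated IgG, 3.29 for non-treated HSF1 and 2.41 for non-treated IgG. Without peaks that overlap any IgG peak it was 2.71 and 2.36 in heat-treated and non-treated mitotic HSF2, 1.41 in non-treated mitotic HSF1 and 1.60 in non-treated cycling HSF1. With occupied bins as the length, heat-treated mitotic IgG had 2.68.

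The number of target sites depends on the threshold by construction. For heat-treated cycling HSF1 it was 297 with no fold minimum, 111 at a fold of 5, 14 at 15, 7 at 20 and 175 with a score of 100, and for heat-treated cycling HSF2 it was 232, 71, 10, 6 and 88. Heat-treated mitotic HSF2 had 274 with no minimum, 24 at 5, 9 with the score of 100, and 0 at 15, at 20, without any matched IgG peak and with a depth-scaled fold of 20. Heat-treated mitotic HSF1 had 85 with no minimum, 4 at 5, 110 with the score and 13 with the depth-scaled fold. Non-treated mitotic HSF2 had 822, 6, 451 and 1 under the same 4 settings. Non-treated mitotic HSF1 had 116 with no minimum and 96 with the score, non-treated cycling HSF1 122, 2 at a fold of 5 and 37 with the score, and non-treated cycling HSF2 29, 13 and 3.

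The share of HSF1 sites with a mitotic peak was 12.8% with no minimum, 25.2% at 5, 92.9% at 15, 85.7% at 20 and 20.6% with the score. For HSF2 it was 12.1% with no minimum, 70.0% at 15, 83.3% at 20 and 23.9% with the score. Sites with a non-treated peak were 3.03% with no minimum and 28.6% at 20 for HSF1, and for HSF2 3.45% with no minimum, 8.45% at 5, 50.0% at 20 and 7.95% with the score. HSF1 sites shared with HSF2 were 42.4% with no minimum, 81.1% at 5 and 64.6% with the score, and HSF2 sites shared with HSF1 were 55.2% with no minimum.

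The share of HSF peaks with an IgG peak was lower wherever overlap was stricter. With 50% reciprocal overlap it was 15.1% and 18.6% for HSF1 and HSF2 in heat-treated mitotic cells, 9.21% and 0.592% in non-treated mitotic cells, 7.84% and 8.39% in heat-treated cycling cells, and 18.8% and 31.6% in non-treated cycling cells. With summits within 250 bp it was 14% and 14.9% in heat-treated mitotic cells, 11.8% for HSF1 in non-treated mitotic cells, 6.16% and 6.2% in heat-treated cycling cells, and 8.84% and 12.3% in non-treated cycling cells. With IgG peaks of a score of at least 100 it was 29.1% and 15.1% in heat-treated mitotic cells and 19.3% for HSF1 in non-treated cycling cells.

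The median CPM on chromosome 19 over that elsewhere, with a score of at least 100, was 0.672 in heat-treated mitotic HSF2 and 0.864 in heat-treated mitotic IgG. In cycling cells it was 1.03 for heat-treated HSF1, 1.26 for heat-treated HSF2, 2.07 for heat-treated IgG and 2.04 for non-treated HSF1. Per kb of width it was 0.962 in heat-treated mitotic HSF2 and 0.983 in heat-treated mitotic IgG.

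Bins of 0.5 Mb raise the fullest bin and the share of empty bins by construction. The fullest then had 44.0 peaks per Mb in heat-treated mitotic HSF1, 42.0 in non-treated mitotic HSF1, 52.0 in non-treated mitotic IgG, 42.0, 30.0 and 30.0 for HSF1, HSF2 and IgG in heat-treated cycling cells, and 32.0 for HSF1 and IgG in non-treated cycling cells. Empty bins were 47.1% in heat-treated mitotic HSF1, 18.5% in heat-treated mitotic HSF2, 56.3% in non-treated mitotic HSF1 and 82.4% in non-treated mitotic IgG. In heat-treated cycling cells they were 29.4% for HSF1, 32.8% for HSF2 and 42.9% for IgG, and in non-treated cycling cells 42.0% for HSF1 and 76.5% for HSF2.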

Other observations

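The IgG list of non-treated mitotic cells was laid out unlike the others. Of its 100 chromosome 19 peaks, 60.0% lay in 3 bins, at 27 to 28 Mb (26 peaks), 36 to 37 Mb (24) and 37 to 38 Mb (10). The first 5 bins held 22.2% of the peaks of heat-treated mitotic IgG and 2.00% of those of non-treated mitotic IgG. The most tagged peak on the chromosome had 197 CPM (3551 tags) in heat-treated and 1168 CPM (2413 tags) in non-treated mitotic IgG, which is the shallowest library with 2066373 kept tags.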
